A study of Mus musculus with 8 samples.

Results

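The tricarboxylic acid cycle was examined through 9 of its enzyme genes, Cs, Idh3a, Idh3b, Idh3g, Ogdh, Dlst, Suclg1, Fh1 and Mdh2, of 55385 genes in the count table. Members were taken by name, by matching the Ensembl identifier of each row without its version to the GENCODE symbol, and all 9 were found and passed the filter on low counts. RNA-seq was performed on poly(A) RNA of R1 mESCs, a wild-type mouse embryonic stem cell line kept in N2B27 medium with 2i and Lif. Cells of each group were exposed on 2 days to lentivirus carrying an shRNA and then selected with puromycin for 3 days. Of the 3 groups, 2 carried an shRNA against Eftud2, a GTPase of the U5 snRNP of the spliceosome (shRNA1 with 3 libraries, shRNA2 with 3 libraries), and the control carried a non-targeting shRNA (nt-shRNA, 2 libraries). The series asked how expression and splicing change when the splicing machinery is perturbed. Both KD comparisons share the same 2 nt-shRNA libraries, and all groups went through the same infection and selection, so no uninfected cells were compared. The cells were infected in bulk, and the share of cells that carried a working shRNA is not given in the sources used here.

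The cycle runs in the mitochondrial matrix. Citrate synthase joins acetyl-CoA to oxaloacetate, dehydrogenases then remove carbon as CO2 and pass electrons to NAD and FAD for the respiratory chain, and malate dehydrogenase restores oxaloacetate. Its intermediates also leave the matrix for lipid, amino acid and nucleotide synthesis, and mouse embryonic stem cells are known to use 2-oxoglutarate as a cofactor of chromatin-modifying dioxygenases. All enzymes of the cycle are encoded in the nucleus and imported.

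The libraries held between 19569525 and 29871048 counts, and the members between 2354 and 10206 counts each. Values are counts scaled to the library total (CPM) with TMM, a factor per library that was between 0.935 and 1.036. Eftud2 was measured at 262.3 and 255.7 CPM with nt-shRNA, at 231.9, 229.2 and 225.3 with shRNA1, and at 198.2, 202.1 and 234.7 with shRNA2. All KD libraries were below both controls, and the library of shRNA2 replicate 3 lay at the level of shRNA1. The decrease was 0.29 ± 0.07 on the log2 scale with shRNA2 (SE, edgeR adjusted p = 0.00122), whereas with shRNA1 the log2 change was -0.18 ± 0.07 (SE, edgeR adjusted p = 0.0514). These are changes in RNA-seq counts. By qPCR the paper reports larger decreases of Eftud2 with both shRNAs, and by western blot less EFTUD2 protein with either. The 10 markers of naive embryonic stem cells, Pou5f1 and Nanog among them, were each above 10 CPM in all groups. They summed to 6880 to 7070 CPM with nt-shRNA, 6950 to 7210 with shRNA1 and 7240 to 7430 with shRNA2. Of them 5 were called higher and 2 lower with shRNA1 (13.8% and 17.1% of all tested genes), and 7 higher and 2 lower with shRNA2 (27.2% and 28.7%). The sum held opposite changes with both shRNAs, such as log2 fold changes of 0.55 and 0.76 for Nanog and 0.65 and 1.32 for Klf4 against -0.35 and -0.29 for Pou5f1 and -0.34 and -0.96 for Dppa5a. Trophoblast markers summed to between 19.9 and 26.5 CPM, and neural and mesoderm markers to between 7.13 and 9.63 CPM. Fibroblast markers were lower with shRNA2 (15.4 to 19.2 CPM) than with nt-shRNA (21.1 to 23.1, with 1 of 5 markers at 0) and shRNA1 (22.3 to 25), a fall that came from Pdgfrb, at a mean of 17.38 CPM with nt-shRNA and 10.41 with shRNA2, whereas Col1a2 was called higher and the median log2 fold change of the 4 tested markers was 0.33. Primitive endoderm markers summed to 14.1 to 17 CPM with shRNA2 against 19.8 to 20.2 with nt-shRNA and 18.5 to 22 with shRNA1. The 4 markers of primed pluripotency summed to 81.8 to 92 CPM with nt-shRNA, 99.1 to 109 with shRNA1 and 119 to 126 with shRNA2, where 1 marker was at 0. That rise came from Dnmt3b, at a mean of 38.57, 61.54 and 91.95 CPM, whereas Otx2 was called lower with shRNA2 and the median log2 fold change of the 3 tested markers was -0.29. With shRNA2 the naive, fibroblast, primitive endoderm and primed sums lay apart from those of nt-shRNA, with shRNA1 the primed sum and the neural and mesoderm sum (7.13 to 8.95 against 9.23 to 9.63 CPM) did, and their part in the results below was not tested. In bulk RNA, less transcript per cell and fewer cells that express a gene cannot be told apart.

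Among the members, 3 were called lower and 1 higher with both shRNAs, which share their controls, where 15.1% of all tested genes were called lower with both and 11.6% higher with both. The promoters of these 4 are shown because they are the members called with both. Without nt-shRNA replicate 2, Mdh2 was called with neither shRNA, and without shRNA1 replicate 1 it was not called with shRNA1. Without nt-shRNA replicate 1, Fh1 was not called with shRNA1. Sequences are from RefSeq on GRCm38.p6, from 250 bases before to 50 bases after the annotated start, 5′ to 3′ on the strand of the gene. Promoters were found for 8 of the 9 members, all but Idh3a. Idh3b (chr2:130284402-130284701, minus strand), Idh3g (chrX:73786848-73787147, minus strand) and Fh1 (chr1:175625586-175625885, minus strand) were lower with both, and Mdh2 (chr5:135778399-135778698, plus strand) was higher with both. Capitals mark matches to the 6 motifs searched.
Idh3b: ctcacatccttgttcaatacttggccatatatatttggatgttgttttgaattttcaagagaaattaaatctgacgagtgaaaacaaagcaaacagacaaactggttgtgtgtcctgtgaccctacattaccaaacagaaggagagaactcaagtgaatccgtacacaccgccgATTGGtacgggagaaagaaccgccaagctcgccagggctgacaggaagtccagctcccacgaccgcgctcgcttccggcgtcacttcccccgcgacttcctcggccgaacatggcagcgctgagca
Idh3g: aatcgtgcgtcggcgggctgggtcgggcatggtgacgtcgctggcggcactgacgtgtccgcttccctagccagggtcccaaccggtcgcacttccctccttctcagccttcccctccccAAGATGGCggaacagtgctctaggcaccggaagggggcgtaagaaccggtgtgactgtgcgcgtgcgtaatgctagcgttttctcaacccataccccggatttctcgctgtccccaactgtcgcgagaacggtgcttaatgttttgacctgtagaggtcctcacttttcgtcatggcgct
Fh1: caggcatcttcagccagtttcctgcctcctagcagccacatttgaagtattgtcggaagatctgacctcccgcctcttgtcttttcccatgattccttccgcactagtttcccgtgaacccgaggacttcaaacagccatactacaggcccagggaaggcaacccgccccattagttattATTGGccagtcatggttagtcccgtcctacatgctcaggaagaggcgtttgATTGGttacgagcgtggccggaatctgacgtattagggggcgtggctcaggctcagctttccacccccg
Mdh2: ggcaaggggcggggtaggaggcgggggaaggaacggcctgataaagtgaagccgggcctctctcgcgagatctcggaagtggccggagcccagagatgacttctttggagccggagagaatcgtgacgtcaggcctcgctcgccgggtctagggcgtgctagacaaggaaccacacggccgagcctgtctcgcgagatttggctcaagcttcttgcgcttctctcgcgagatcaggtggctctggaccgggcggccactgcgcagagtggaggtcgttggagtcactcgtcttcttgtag

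The 6 motifs are short sites of factors known to act on nuclear genes of mitochondria, or common in promoters, and both strands were searched. They were the NRF1 core (CGCATGCG), the ETS site of GABPA (CCGGAAGT), the YY1 site (AAGATGGC), the element of estrogen-related receptors (TCAAGGTCA), the E-box (CACGTG) and the CCAAT box (CCAAT). No motif is contained in another. Of 32851 promoters in the table, 37.4% held a CCAAT box, and 4 of the 8 members did at any of their annotated starts: Cs, Idh3b, Fh1 and Ogdh. In Fh1 the box was found in reverse at bases -70 and -19 from the start, counting the first transcribed base as 1, and in Idh3b in reverse at -76. Cs held it at -116 and -55. Idh3g held a YY1 site at -130, a motif present in 2.75% of promoters. Dlst held an ETS site at base 1, against 3.89% of all promoters. Ogdh, with 6 annotated starts in the table, held an NRF1 core (1.87% of promoters) at starts 5 and 6 and an E-box (7.15%) at starts 4 to 6. All these shares count single promoters, so they are not the comparable value for a gene with 6 starts. The estrogen-related receptor element, in 0.423% of promoters, was in none of the 8, and the windows of Mdh2 and Suclg1 held none of the 6. Matches of this kind are descriptions of sequence and not measurements of binding.

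The 9 members moved in both directions, and the largest decrease exceeded the largest increase with each shRNA. With shRNA1, 3 members fell (Idh3b, Idh3g and Fh1), 2 rose (Ogdh and Mdh2) and 4 did not pass the test. Of the 17445 genes tested in this comparison 17.1% were called lower and 13.8% higher. With shRNA2, 5 members fell (Cs, Idh3a, Idh3b, Idh3g and Fh1), 1 rose (Mdh2) and 3 did not pass, where 28.7% of all tested genes were called lower and 27.2% higher. Without nt-shRNA replicate 2, 0 members were called higher with either shRNA. For shRNA1, 2 were lower without nt-shRNA replicate 1, and 1 was higher without shRNA1 replicate 1 or 2. For shRNA2, 2 were higher without shRNA1 replicate 3 or shRNA2 replicate 2. The median log2 fold change over the 9 members was -0.08 with shRNA1 and -0.28 with shRNA2, beside medians over all tested genes of -0.01 and 0.00. The members' median with shRNA1 was -0.15 with an offset for GC content, and -0.05 when at least 10 counts were required in every library. Between the shRNAs, 4 members were lower with shRNA2 than with shRNA1 (Cs, Idh3a, Idh3g and Fh1) and 0 were higher (0 also by DESeq2 and at an unadjusted p under 0.05 in edgeR), where 18.7% of all tested genes were called lower and 16.9% higher, with a members' median of -0.06. That count of 4 was 0 without shRNA2 replicate 2, 1 without shRNA1 replicate 1 or 3, 2 without shRNA2 replicate 1 and 3 without shRNA1 replicate 2. Calls were made at an adjusted p under 0.05 in edgeR's quasi-likelihood test over all 8 libraries. Scaling by library size alone raised the median of all genes to 0.11 with shRNA1 and 0.09 with shRNA2, under which the members' median with shRNA1 turned to 0.03 and that with shRNA2 was -0.19, Idh3a and Dlst changed sign with shRNA1 without being called, and the 5 decreases with shRNA2 were still called. The summed level of the 9 members was 1660 ± 61.2 CPM with nt-shRNA (SD, n = 2), 1563 ± 36.1 with shRNA1 (SD, n = 3) and 1487 ± 18.1 with shRNA2 (SD, n = 3). The 2 controls stood at 1703 and 1617 CPM, above the 1585, 1521 and 1583 of shRNA1 and the 1493, 1466 and 1501 of shRNA2, and no group overlapped another. The separation of shRNA1 from the controls depended on the TMM factors, 0.9353 and 0.9618 for nt-shRNA and 1.021 to 1.036 for shRNA1. Scaled by library size alone, the sums of shRNA1 and nt-shRNA overlapped.

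**Figure D1:**
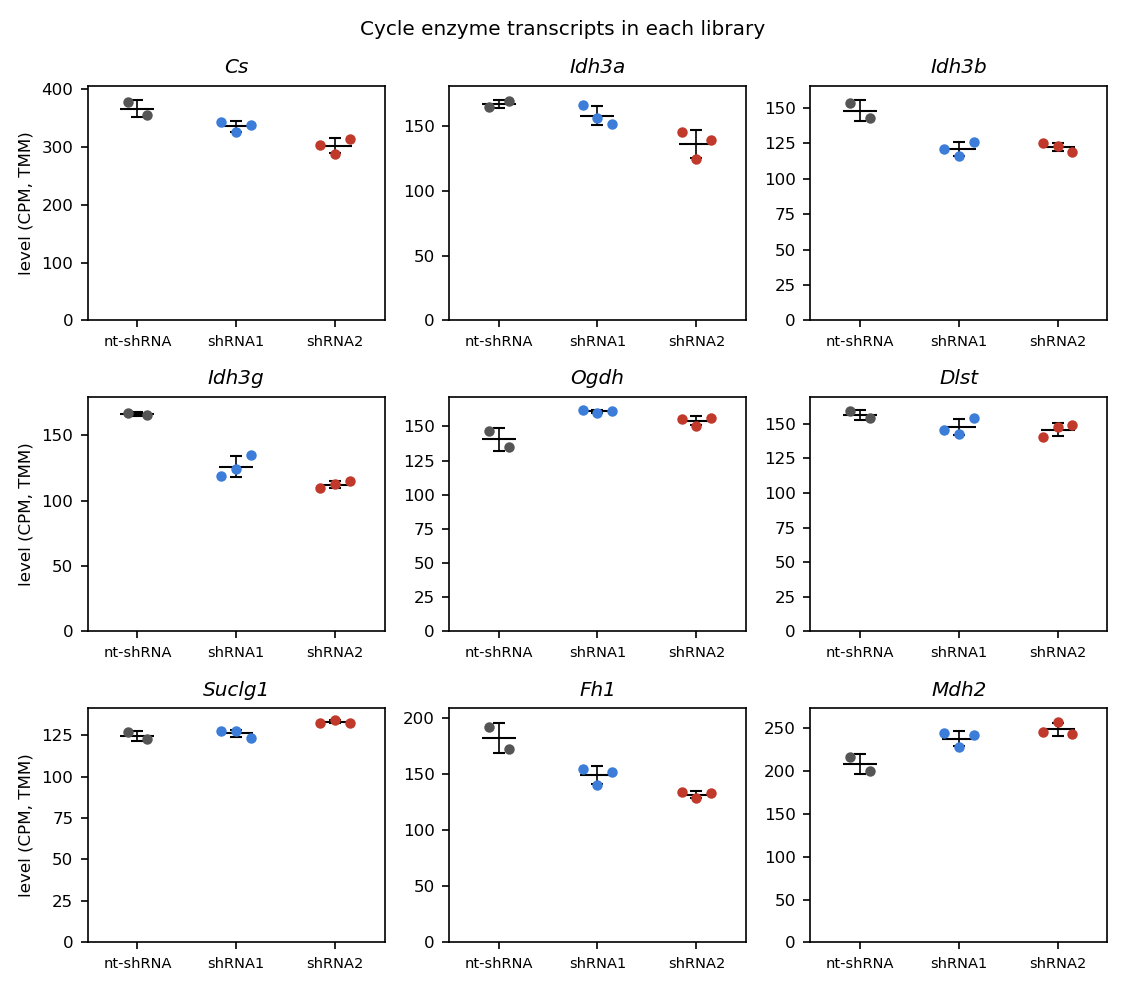
Level of each of the 9 cycle enzyme transcripts in every library (vertical axis, TMM-scaled CPM from 0; horizontal axis, group), with points for libraries and bars for the mean ± SD (n = 2, 3 and 3). Idh3g falls from 167.2 and 165 CPM in the controls to between 109.6 and 114.6 with shRNA2, while Mdh2 lies above both controls in all 6 KD libraries.

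Cs encodes citrate synthase, which makes citrate from acetyl-CoA and oxaloacetate (GRCm38 chr10:128337734-128362479, plus strand, 11 merged exons). It was measured at 377 and 355.6 CPM with nt-shRNA, at 343.9, 325.2 and 338.8 with shRNA1, and at 304.2, 287.7 and 313.2 with shRNA2. The 3 groups did not overlap and lay in that order. With shRNA2, Cs fell by 17.6% (log2 fold change -0.28 ± 0.06, SE; edgeR adjusted p = 6.31e-04). With shRNA1 the log2 fold change was -0.12 ± 0.06 (edgeR adjusted p = 0.127), and it was called with an offset for GC content (-0.16, edgeR adjusted p = 0.0266). The direct comparison of shRNA2 with shRNA1 gave -0.16 ± 0.05 (edgeR adjusted p = 0.0324), a call that was lost when shRNA1 replicate 1 (adjusted p = 0.0959), shRNA1 replicate 3 (0.053), shRNA2 replicate 1 (0.0775) or shRNA2 replicate 2 (0.133) was left out of the edgeR fit.

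Idh3a, Idh3b and Idh3g encode the subunits of the NAD-dependent isocitrate dehydrogenase, which turns isocitrate to 2-oxoglutarate. Idh3a is the catalytic subunit, and Idh3b and Idh3g encode its partner subunits. Idh3b and Idh3g fell with both shRNAs, and Idh3a fell with shRNA2.

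Idh3a (chr9:54586334-54604661, plus strand, 11 merged exons) was at 165.2 and 169.4 CPM with nt-shRNA, 166.5, 156.4 and 151.8 with shRNA1, and 145.7, 124.6 and 139.3 with shRNA2. The shRNA1 libraries overlapped the controls, and the shRNA2 libraries lay below all others. It fell with shRNA2 by 18.4% (log2 fold change -0.29 ± 0.07, edgeR adjusted p = 0.00117), against -0.08 ± 0.07 with shRNA1 (edgeR adjusted p = 0.39). The difference between the shRNAs was -0.21 ± 0.06 (edgeR adjusted p = 0.0114). That difference was not called without shRNA1 replicate 1 (adjusted p = 0.0591 in edgeR) or without shRNA2 replicate 2 (0.07), the library with the lowest Idh3a.

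Idh3b (chr2:130279309-130284547, minus strand, 10 merged exons) was at 153.4 and 142.8 CPM with nt-shRNA, 121.2, 116.2 and 125.7 with shRNA1, and 125, 122.8 and 119.1 with shRNA2. Both KD groups lay below the controls and overlapped each other. Idh3b fell by 18.2% with shRNA1 (-0.29 ± 0.06 on the log2 scale, edgeR adjusted p = 0.0013) and by 17.4% with shRNA2 (-0.28 ± 0.06, edgeR adjusted p = 7.83e-04). The difference between shRNA2 and shRNA1 was 0.01 on the log2 scale, with a 95% interval from -0.10 to 0.13. Its exons share 5 bases with Nop56 on the opposite strand, and counting did not use strand.

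Idh3g (chrX:73778963-73786897, minus strand, 9 merged exons) changed most among the members in both comparisons with nt-shRNA. It was at 167.2 and 165 CPM with nt-shRNA, 118.8, 124.3 and 134.5 with shRNA1, and 109.6, 112.5 and 114.6 with shRNA2, 3 groups with no overlap. It fell by 24.1% with shRNA1 (-0.40 ± 0.06, edgeR adjusted p = 8.78e-05) and by 32.4% with shRNA2 (-0.57 ± 0.06, edgeR adjusted p = 3.59e-07). These calls held under each of the 16 alternatives tried. The shRNA2 level was also below that of shRNA1 (-0.17 ± 0.06, edgeR adjusted p = 0.0283). This last call was lost without shRNA1 replicate 2 (edgeR adjusted p = 0.0594), shRNA1 replicate 3 (0.113), shRNA2 replicate 1 (0.108) or shRNA2 replicate 2 (0.0539).

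Ogdh and Dlst encode the E1 and E2 components of the 2-oxoglutarate dehydrogenase complex, which makes succinyl-CoA. Ogdh carries the thiamine-dependent decarboxylase, and Dlst the lipoyl-bearing succinyltransferase. Ogdh rose with shRNA1, and no change of Dlst was called.

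Ogdh (chr11:6291633-6356642, plus strand, 27 merged exons) was at 146.5 and 134.7 CPM with nt-shRNA, 161.8, 160.1 and 161 with shRNA1, and 155.6, 150.2 and 156.4 with shRNA2. All 6 KD libraries were above both controls, with the controls further apart than the libraries of either KD. It rose with shRNA1 by 14.5% (0.19 ± 0.06, edgeR adjusted p = 0.0178), and the change with shRNA2 was 0.13 ± 0.06 (edgeR adjusted p = 0.0674). The call with shRNA1 was lost without nt-shRNA replicate 2 (edgeR adjusted p = 0.248) or shRNA1 replicate 2 (0.0502), and a call with shRNA2 was gained under 5 alternatives, among them leaving out shRNA1 replicate 3 (0.0497) or shRNA2 replicate 2 (0.0452). No difference between the shRNAs passed (-0.06, 95% interval from -0.17 to 0.05).

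Dlst (chr12:85110833-85134845, plus strand, 14 merged exons) was at 159.2 and 154 CPM with nt-shRNA, 145.6, 142.8 and 154.3 with shRNA1, and 140.4, 147.8 and 149 with shRNA2. One shRNA1 library reached the controls, and the shRNA2 libraries lay below them. The log2 fold changes were -0.08 with shRNA1 (95% interval from -0.21 to 0.04) and -0.10 with shRNA2 (from -0.23 to 0.02), neither called by edgeR, although with an offset for GC content the latter was (-0.14, edgeR adjusted p = 0.0354).

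Suclg1 encodes the alpha subunit of succinyl-CoA synthetase, shared by the ATP-forming and GTP-forming enzymes (chr6:73248382-73276911, plus strand, 11 merged exons). Its levels were 126.7 and 122.4 CPM with nt-shRNA, 127.2, 127.6 and 123.4 with shRNA1, and 132.4, 134 and 132.6 with shRNA2. The shRNA1 libraries overlapped the controls, and the shRNA2 libraries were above all others by a small margin. The log2 fold changes of 0.02 (95% interval from -0.10 to 0.14) and 0.09 (from -0.03 to 0.21) were not called, although library size alone called the latter (0.18, edgeR adjusted p = 0.00997).

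Fh1 encodes fumarase, which hydrates fumarate to malate (chr1:175600374-175625635, minus strand, 11 merged exons). It was at 192 and 173 CPM with nt-shRNA, 155.2, 140.6 and 152.2 with shRNA1, and 134.2, 128.9 and 133 with shRNA2. The groups did not overlap, though the 2 controls differed from each other by more than the libraries of either KD did. Fh1 fell by 18.2% with shRNA1 (-0.29 ± 0.06, edgeR adjusted p = 0.002) and by 27.7% with shRNA2 (-0.47 ± 0.06, edgeR adjusted p = 5.21e-06). Without nt-shRNA replicate 1, the library with the highest Fh1, the shRNA1 change was -0.21 with an edgeR adjusted p of 0.0824, and the shRNA2 decrease was still called. The difference between the shRNAs was -0.18 ± 0.06 (edgeR adjusted p = 0.0228), lost without shRNA1 replicate 1 (0.087), shRNA1 replicate 3 (0.0526) or shRNA2 replicate 2 (0.0696).

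Mdh2 encodes mitochondrial malate dehydrogenase, the enzyme after fumarase in the cycle (chr5:135778480-135790398, plus strand, 9 merged exons). It moved the other way. Its levels were 216.2 and 200 CPM with nt-shRNA, 244.5, 228.3 and 241.7 with shRNA1, and 245.9, 257.7 and 243.5 with shRNA2. The KD groups overlapped each other and lay above both controls. Mdh2 rose by 14.5% with shRNA1 (0.20 ± 0.06, edgeR adjusted p = 0.0206) and by 19.7% with shRNA2 (0.26 ± 0.06, edgeR adjusted p = 0.0014). Without nt-shRNA replicate 2, the lower control, neither was called (edgeR adjusted p = 0.244 and 0.051), and without shRNA1 replicate 1 the shRNA1 change was not called (0.0664).

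**Figure D2:**
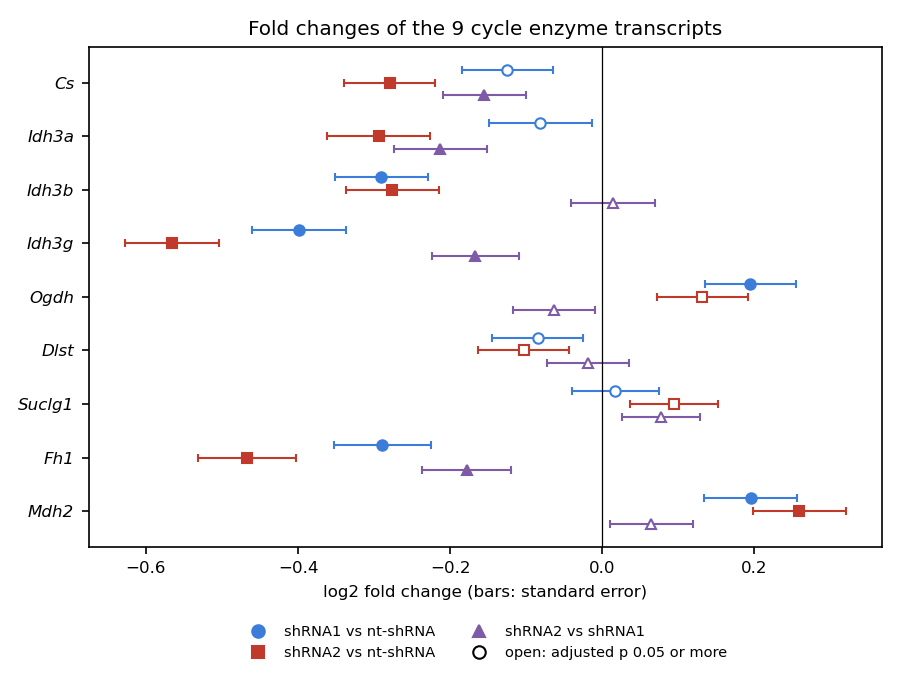
Log2 fold change (horizontal axis) of each of the 9 members (vertical axis) in the 3 comparisons, with bars for the standard error and filled symbols for an adjusted p under 0.05 in edgeR. Idh3g and Fh1 lie furthest to the left with shRNA2 (-0.57 and -0.47), and Mdh2 furthest to the right (0.26).

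The order of the 9 transcripts per kilobase of merged exons, a scale that depends on the annotated lengths, also changed. The mean level with nt-shRNA was 63.4 ± 2.62 CPM per kb for Cs, 61.5 ± 0.581 for Idh3g, 58.4 ± 3.22 for Mdh2 and 53.8 ± 3.97 for Fh1 (SD, n = 2). Libraries of Cs and Idh3g overlapped, as did those of Mdh2 and Fh1. Idh3b (43.3 ± 2.18) and Idh3a (33 ± 0.584) followed, then Suclg1 (27 ± 0.671) and Ogdh (25.8 ± 1.53), which overlapped, and Dlst was lowest at 16.4 ± 0.388. With shRNA2, Mdh2 was highest at 69.9 ± 2.14 CPM per kb and Cs next at 52.2 ± 2.24 (SD, n = 3), ahead of Idh3g (41.5 ± 0.937), Fh1 (38.9 ± 0.808) and Idh3b (35.7 ± 0.863). Suclg1 (28.8 ± 0.195), Ogdh (28.2 ± 0.62) and Idh3a (26.9 ± 2.13) came after them, with Idh3a overlapping both Ogdh and Suclg1, and Dlst was again last at 15.2 ± 0.489. With shRNA1 the first places were held by Mdh2 (66.9 ± 2.43) and Cs (58.1 ± 1.67), and only Idh3g (46.6 ± 2.94) and Fh1 (44 ± 2.26) overlapped as neighbours. The length used is that of all annotated exons of a gene merged, which can be longer than the transcript that the cells make. The places given here rest on that length. In CPM, not divided by length, Cs lay above Mdh2 in every library, with shRNA2 at 304.2, 287.7 and 313.2 against 245.9, 257.7 and 243.5.

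Of 9 other enzymes and subunits of the cycle, 4 fell and 0 rose with shRNA1, and 6 fell and 0 rose with shRNA2, with medians of -0.21 and -0.30 on the log2 scale. DESeq2 gave the same counts, and the increases at an unadjusted p under 0.05 in edgeR were 0 and 1. The list was read from the same fit as the members and shares their background of 17.1% and 28.7% called lower. Idh2, the NADP-dependent mitochondrial isocitrate dehydrogenase, was at 313.7 and 303.8 CPM with nt-shRNA, 183.5, 179.6 and 201.8 with shRNA1 and 124.4, 102.6 and 133.3 with shRNA2. These 3 groups were far apart, and Idh2 fell by 39% with shRNA1 (-0.71 ± 0.08, edgeR adjusted p = 3.31e-06) and by 61.1% with shRNA2 (-1.36 ± 0.08, edgeR adjusted p = 2.17e-10), more than any of the 9 members. Neither Idh2 nor any member had a stretch of 100 bases or more with at least 95% identity to another annotated gene's transcripts.

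Succinate dehydrogenase, which oxidizes succinate and is also complex II of the respiratory chain, has 4 subunits. Sdha, the flavoprotein, was at 275.7 and 277.6 CPM with nt-shRNA, 221.1, 212.7 and 217.3 with shRNA1 and 212.1, 218.5 and 206.9 with shRNA2. It fell with both (-0.35 and -0.38, edgeR adjusted p = 1.2e-04 and 1.29e-05). The KD groups overlapped each other and lay well below the controls. Sdhc, a membrane anchor, fell by 22% and 32.6% (edgeR adjusted p = 2.18e-04 and 2.7e-07), and Sdhb, the iron-sulfur subunit, by 16.4% and 25.5% (edgeR adjusted p = 0.00386 and 1.23e-05). The Sdhb call with shRNA1 was lost without nt-shRNA replicate 1 (edgeR adjusted p = 0.0521) and under library size alone (0.0802). Sdhd, the other anchor, had log2 fold changes of -0.13 and -0.10 and was not called.

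Among subunits shared with the complexes of Dlst and Suclg1, Dld, the dihydrolipoamide dehydrogenase, was not called (0.10 and 0.16 on the log2 scale, edgeR adjusted p = 0.296 and 0.06). It was called higher with shRNA2 under 5 alternatives, among them the fit with a replicate block (edgeR adjusted p = 0.0215) and the one without shRNA1 replicate 3 (0.018). With shRNA1 it was called higher under library size alone (edgeR adjusted p = 0.0242) and without shRNA1 replicate 3 (0.0317). With the GC content offset Dld instead changed sign, to -0.04 with shRNA1 and -0.03 with shRNA2, and was not called. Mrps36, a small subunit that attaches Dld to the 2-oxoglutarate dehydrogenase complex, fell with shRNA2 by 18.8% (edgeR adjusted p = 0.00999) and was at -0.21 on the log2 scale with shRNA1 (edgeR adjusted p = 0.0883). With the GC content offset Mrps36 was also called with shRNA1 (0.0229). The Mrps36 call with shRNA2 was lost without nt-shRNA replicate 1 (0.109) and under library size alone (0.0591), and 44.1% of its longest transcript has a close copy elsewhere. Suclg2, the GTP-specific partner of Suclg1, fell with shRNA2 by 12.8% (edgeR adjusted p = 0.00877), a call lost without nt-shRNA replicate 2 (0.073) or under library size alone (0.139). The GC content offset called Suclg2 lower with shRNA1 as well (0.00139), and 38.7% of its longest transcript has a close copy in Gm15163. Sucla2, the ATP-specific partner, was at 0.04 and 0.13 on the log2 scale and was not called, except with shRNA2 under library size alone (edgeR adjusted p = 0.0127). With the GC content offset Sucla2 was at -0.07 and -0.0022, and without shRNA1 replicate 1 at -0.01 with shRNA1, none of them called.

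**Figure D3:**
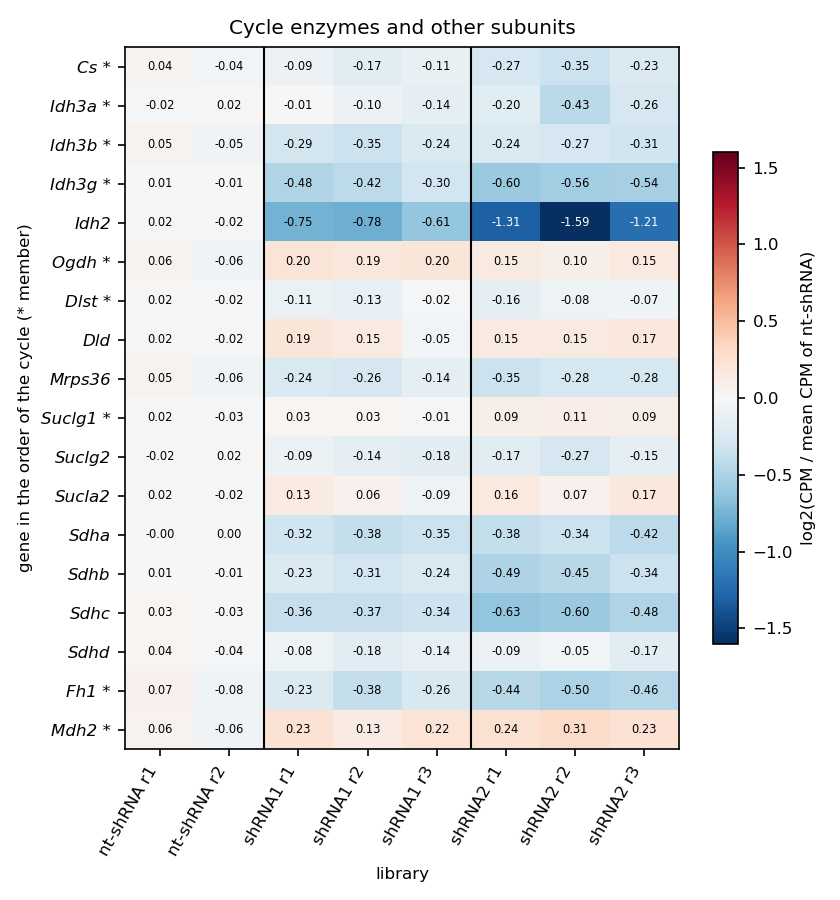
Log2 ratio of the CPM in each library to the mean of the 2 nt-shRNA libraries (colour and printed value) for the 9 members (marked *) and the 9 other subunits, listed from citrate synthase to malate dehydrogenase, with libraries in columns. Idh2 is darkest in all 6 KD libraries, and Ogdh and Mdh2 are above the controls in all 6.

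Subunits of one enzyme were compared as a ratio of levels per kilobase within each library, in which the scaling of the library cancels. The ratio of Idh3g to Idh3a was 1.9 and 1.83 with nt-shRNA, 1.34, 1.49 and 1.66 with shRNA1, and 1.41, 1.7 and 1.54 with shRNA2. All 6 KD libraries lay below the controls. The ratio of Idh3b to Idh3a was 1.38 and 1.25 with nt-shRNA, 1.08, 1.1 and 1.23 with shRNA1, and 1.27, 1.46 and 1.27 with shRNA2, so that shRNA1 was below the other groups and shRNA2 overlapped the controls. The ratio of Dlst to Ogdh was 0.62 and 0.653 with nt-shRNA, 0.514, 0.509 and 0.547 with shRNA1, and 0.515, 0.562 and 0.544 with shRNA2. Again the KD libraries were lower in all 6. On the log2 scale, Dlst to Ogdh differed from nt-shRNA by -0.28 with shRNA1 and -0.24 with shRNA2, and Idh3g to Idh3a by -0.32 and -0.27, each with a p of 0.2 in a two-sided exact permutation test. With 3 against 2 libraries 0.2 was the smallest p that complete separation gave here, and with 3 against 3 it was 0.1, so none of the 9 ratio comparisons could pass 0.05. Adjusted over the 9, the lowest value in these exact permutation tests was 0.3.

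**Figure D4:**
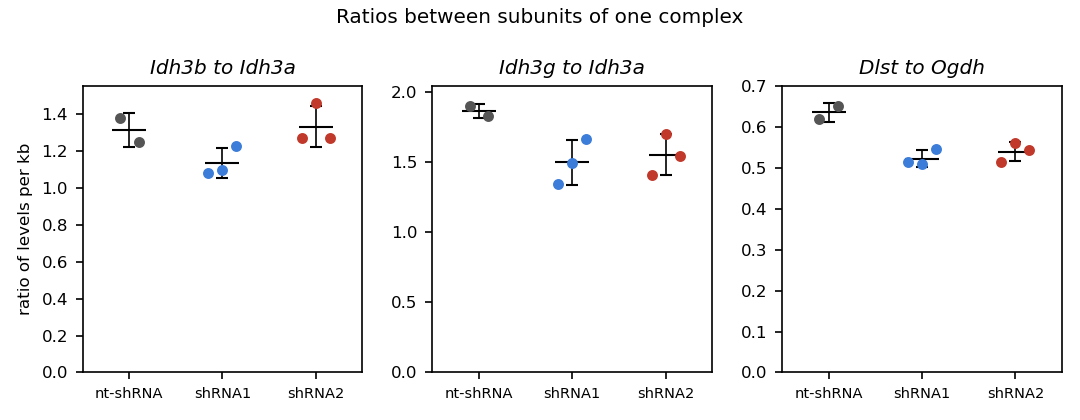
Ratio of levels per kilobase between subunits of one enzyme (vertical axis, from 0) in each library by group (horizontal axis), with bars for the mean ± SD (n = 2, 3 and 3). Idh3g to Idh3a is 1.86 ± 0.0506 with nt-shRNA, 1.5 ± 0.162 with shRNA1 and 1.55 ± 0.142 with shRNA2, and Dlst to Ogdh is 0.636 ± 0.0228, 0.523 ± 0.0207 and 0.54 ± 0.0235.

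The pathways that feed and drain the cycle were read from fixed lists in the same fit. The shares of all tested genes to set beside each count were 17.1% lower and 13.8% higher with shRNA1, and 28.7% lower and 27.2% higher with shRNA2. Pyruvate entry, by the mitochondrial pyruvate carrier, the pyruvate dehydrogenase complex with its kinases and phosphatases, and pyruvate carboxylase, had 6 of 14 genes lower and 1 higher with shRNA1, and 8 lower and 2 higher with shRNA2. The 3 genes with the smallest adjusted p with shRNA2 were Pdk1 and Pdk4, kinases that inactivate pyruvate dehydrogenase, and Mpc1, a subunit of the carrier. Pdk1 was at 165.3 and 200.3 CPM with nt-shRNA, between 103.2 and 112.4 with shRNA1 and between 80.36 and 88.49 with shRNA2, a fall of 0.77 and 1.14 on the log2 scale (decreases, edgeR adjusted p = 5.21e-07 and 6.74e-10). Pdk4 had log2 fold changes of -0.48 and -1.06 and Mpc1 of -0.49 and -0.93, all called lower. Pdhx, the E3-binding protein of the complex, went the other way, with 0.47 ± 0.08 with shRNA2 (edgeR adjusted p = 3.45e-05) and 0.19 ± 0.08 with shRNA1 (edgeR adjusted p = 0.0637, between 0.00566 and 0.0468 under the 4 alternatives that called it). Pdpr, the regulatory subunit of pyruvate dehydrogenase phosphatase, named after its values were seen, was the other gene called higher (0.20 with shRNA1 and 0.22 with shRNA2, edgeR adjusted p = 0.0489 and 0.0172), and DESeq2 did not call it with shRNA1. Genes of lipoic acid attachment, which Dlst needs, and of succinate dehydrogenase assembly showed 0 of 7 called with either shRNA. DESeq2 also called 0, and an unadjusted p under 0.05 in edgeR was found for 0 with shRNA1 and 1 with shRNA2. That gene, Sdhaf1, was at 0.34 ± 0.15 (edgeR adjusted p = 0.0671) and was called higher under 3 alternatives, and Lipt2, Sdhaf3 and Lipt1 were at 0.29, 0.19 and -0.06. Library size alone called Sdhaf3 higher with shRNA2 (edgeR adjusted p = 0.0352).

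Enzymes that make or use glutamate and 2-oxoglutarate were lower in 5 of 8 with shRNA1 and 7 of 8 with shRNA2, and 0 were higher (0 also by DESeq2 and at an unadjusted p under 0.05 in edgeR). The alanine transaminase Gpt2 fell from 190.2 and 148 CPM with nt-shRNA to between 105.2 and 124 with shRNA1 and between 73.01 and 81.51 with shRNA2 (log2 fold changes -0.57 and -1.13, edgeR adjusted p = 7.16e-05 and 4.62e-09). Got1, cytosolic aspartate transaminase, had -0.43 and -0.81, and Glud1, glutamate dehydrogenase, which makes 2-oxoglutarate in the matrix, -0.29 and -0.58, all called lower. Oat, ornithine aminotransferase, was not called, at -0.04 and -0.08, except with shRNA2 under the GC content offset (edgeR adjusted p = 0.0484). Of the carriers of cycle intermediates across the inner membrane, 4 of 6 were lower and 1 higher with each shRNA. Slc25a1, the citrate carrier, was at 155.5 and 159.5 CPM with nt-shRNA, 78.08, 68.91 and 89.27 with shRNA1 and 45.02, 38.29 and 53.97 with shRNA2. It fell by 49.9% and 71% (edgeR adjusted p = 9.74e-07 and 1.69e-10), more than any member of the cycle. Slc25a13, an aspartate-glutamate carrier, and Slc25a11, the 2-oxoglutarate carrier, had -0.66 and -0.62 with shRNA2, both called lower. Slc25a10, the dicarboxylate carrier, rose with shRNA2 from 7.572 and 7.003 CPM to 13.9, 15.06 and 12.07 (0.91 ± 0.13, edgeR adjusted p = 6.88e-06), and its smaller rise with shRNA1 (0.40) was not called without shRNA1 replicate 2, nt-shRNA replicate 1 or nt-shRNA replicate 2 (edgeR adjusted p = 0.0945, 0.0707 and 0.163).

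Enzymes that use the same intermediates outside the cycle, the cytosolic aconitase, isocitrate and malate dehydrogenases, citrate lyase, the malic enzymes and the mitochondrial PEP carboxykinase Pck2, were lower in 3 of 7 tested genes with shRNA1 and 5 of 7 with shRNA2, where 1 was higher. Me3, the eighth gene of this list, was below the count filter. Pck2 fell from 92.4 and 72.57 CPM to between 29.49 and 30.57 with shRNA2 (-1.45 ± 0.12, edgeR adjusted p = 6.21e-09), and was at -0.84 with shRNA1. Me1, the cytosolic malic enzyme, had -0.60 and -1.03, and Acly, ATP citrate lyase, -0.38 and -0.51, all called lower. The 1 gene called higher was Me2, a mitochondrial malic enzyme (0.18 ± 0.06 with shRNA2, edgeR adjusted p = 0.0207). It was not called without nt-shRNA replicate 1 (0.17) or 2 (0.0648), without the filter on low counts (0.112), or with an offset for GC content (0.316).

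Glycolysis and the respiratory chain, the neighbouring parts of energy metabolism, were read the same way. All 8 genes of lower glycolysis, from Aldoa to Ldha, fell with each shRNA, with medians of -0.70 and -1.16, against -0.08 and -0.28 for the members. Pgk1, phosphoglycerate kinase, fell from 678.4 and 752.8 CPM to 203, 192.5 and 231.6 with shRNA2 (-1.78 ± 0.09, edgeR adjusted p = 3.6e-11). Aldoa and Tpi1 had -1.67 and -1.48 with shRNA2, and Pgam1, the gene of this list that changed least, -0.58. Of 19 nuclear genes for the respiratory chain and ATP synthase, 8 were lower with shRNA1 and 7 with shRNA2, and 0 were higher, with medians of -0.14 and -0.11. The share of all tested genes called lower was 17.1% and 28.7%, so the count with shRNA2 was near that background. DESeq2 also called 0 higher, and the increases at an unadjusted p under 0.05 in edgeR were 0 and 2. Ndufs7 of complex I had -0.49 and -0.45, Atp5c1 of ATP synthase -0.26 and -0.36, and Atp5a1 -0.25 and -0.26, all called lower, though the shRNA1 calls of Atp5c1 and Atp5a1 were lost under library size alone (edgeR adjusted p = 0.0653 and 0.0586). Uqcrfs1, the Rieske protein of complex III, was at 0.02 and 0.15 and was not called, though 5 alternatives called it higher with shRNA2, among them those without shRNA1 replicate 3 (0.0486) or shRNA2 replicate 3 (0.0269). Of 10 tested regulators of mitochondrial genes, 0 were called with shRNA1 (0 also by DESeq2 and at an unadjusted p under 0.05 in edgeR) and 7 were higher with shRNA2. With shRNA1, Esrrb was called higher under library size alone and with the GC content offset (edgeR adjusted p = 0.0394 and 0.0453), and Tfam under library size alone (0.0198). Esrrb, also a naive stem cell gene, was at 524.6 and 539.2 CPM with nt-shRNA and 666, 751.9 and 669 with shRNA2 (0.39 ± 0.06, edgeR adjusted p = 4.53e-05). Tfam, which packages mitochondrial DNA, had 0.36 with shRNA2 (edgeR adjusted p = 1.9e-04). Myc was low throughout, at 0.2999 and 0.6968 CPM with nt-shRNA and 2.976, 6.268 and 1.56 with shRNA2 (2.83 ± 0.49, edgeR adjusted p = 6.99e-05). Ppargc1b was at -0.09 with shRNA2 and was not called, and Ppargc1a was below the count filter.

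**Figure D5:**
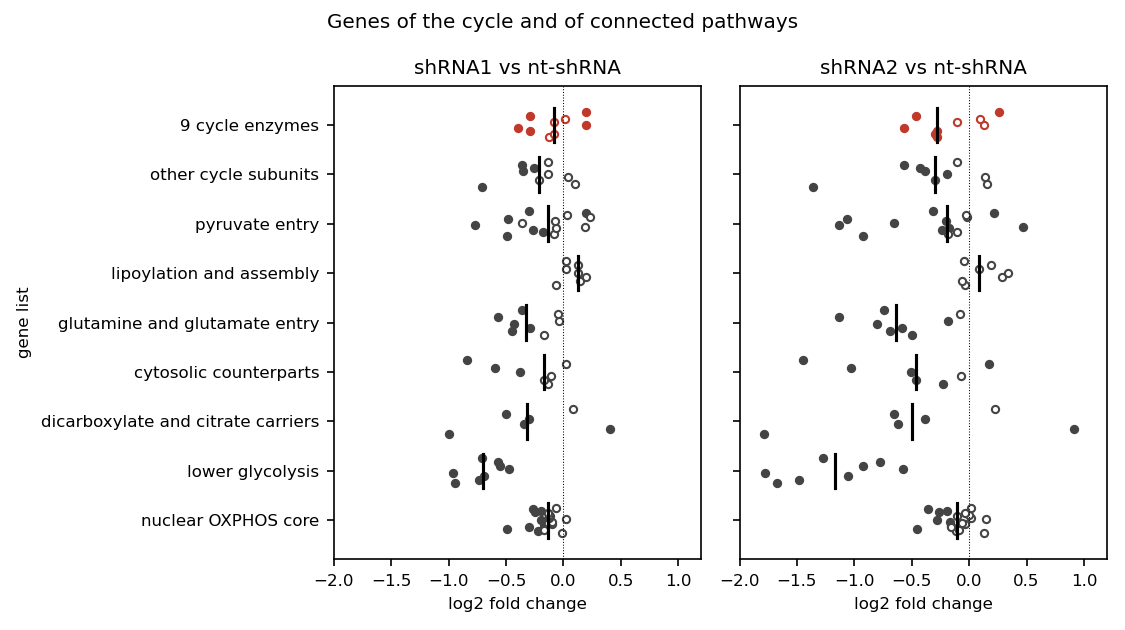
Log2 fold change (horizontal axis) of each tested gene in the 9 cycle enzymes and 8 of the 9 other lists (vertical axis, regulators not drawn), with shRNA1 on the left and shRNA2 on the right, filled points for genes called in edgeR and black bars for list medians. The bar of lower glycolysis lies at -0.70 and -1.16, and that of the 9 cycle enzymes at -0.08 and -0.28.

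Across the 8 libraries the members formed a group that moved together and a group that moved against it. Over the 36 pairs of members, Pearson's r of the log2 levels had a median of 0.036 and ran from -0.891 (Idh3g and Mdh2) to 0.958 (Cs and Fh1), with 18 pairs negative. Cs, Idh3a, Idh3b, Idh3g, Fh1 and Dlst correlated positively with each other, and Ogdh, Suclg1 and Mdh2 did so among themselves. Some pairs were weak, both within the groups (Ogdh and Suclg1 0.292, Idh3a and Dlst 0.317) and between them (Idh3a and Ogdh -0.22, Cs and Ogdh -0.32). These correlations include the differences between the 3 groups and share the same 8 libraries, so they describe the pattern and carry no test. The genes outside the cycle most like the mean of the standardized levels of the members over the 8 libraries were Paxx (r = 0.985), Nxnl1 (0.972), Ssna1 (0.97), Trappc1 (0.969) and Mthfd2 (0.968), of which Mthfd2 is a mitochondrial enzyme of folate metabolism. That mean nets opposed changes, since Ogdh, Suclg1 and Mdh2 correlated negatively with each of the other members. How many genes reach a similar r was not counted.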

How the data were processed

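RNA-seq counts of 8 libraries of R1 mESCs were analysed. The authors aligned paired reads with STAR to mm10 (GRCm38) without soft-clipping, counted fragments on exons of GENCODE M24 with featureCounts 1.6.2. The deposited table holds these raw counts and the merged exon length (unit other). Strand was not used, and multi-mapping fragments or those on several genes were dropped, so overlapping genes and close copies are uncertain. Symbols of 55144 of 55385 genes came from GENCODE M21. No per-sample column was left out.

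After filterByExpr (minimum count 10, 17445 genes left), TMM factors were computed and groups compared by glmQLFit and glmQLFTest in edgeR 4.0.16 (R 4.3.3), with 1 coefficient per group and no block. P-values were adjusted by the Benjamini-Hochberg method over all 17445 genes, at a threshold of 0.05. The standard error (±) came from the F statistic, and intervals from its degrees of freedom. Log2 CPM used a prior count of 2. Ratios were tested with exact permutation tests (scipy 1.17.1). Copies were searched with blastn 2.17.0+ in M21 transcripts, and promoters come from RefSeq. The code was tested on simulated counts.

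The labels call the libraries biological replicates without saying whether they are separate infections, so p-values measure the spread between these libraries. Chi-square per gene within groups was 3.12 to 12, so no library repeats another. Named genes were the 9 members, the other subunits, and from each list the 3 with the smallest adjusted p with shRNA2 and the one most opposed to the sign of its median, plus the 5 genes with the highest r to the members. Of 2 identifiers named Aldoa or Atp5o, that with more counts was used. The members and lists were chosen with earlier results of these data known. A gene of the list of other subunits is not reported here, and that list's counts leave it out. Alternatives were DESeq2 1.42.0, its size factors, library size alone, other filters, only the groups compared, a replicate block, a GC content offset (added after seeing the data), raw counts plus 0.5 for ratios, and each library left out.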

Additional observations from a re-analysis of the deposited data

Results flagged for a closer look

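The effect of the 2 shRNAs differed in a direct test (shRNA2 against shRNA1 in the edgeR fit) for 7 of 18 cycle genes, all lower with shRNA2, where 18.7% of all tested genes were called lower and 16.9% higher. Among the members the log2 difference was -0.16 for Cs, -0.21 for Idh3a, -0.17 for Idh3g and -0.18 for Fh1. Among the other subunits it was -0.65 for Idh2, -0.17 for Sdhb and -0.21 for Sdhc. The differences of Idh2 and Sdhc were called under all 16 alternatives, and those of the 4 members and of Sdhb were each lost when at least 2 of the libraries were left out in turn. Groups of 2 and 3 libraries were too small for a test of single outlying libraries.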

How the results depend on the processing

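The 5 decreases of members with shRNA2 (Cs, Idh3a, Idh3b, Idh3g and Fh1) and the shRNA1 decreases of Idh3b and Idh3g were called under all 16 alternatives. Scaling by library size alone turned the members' median with shRNA1 to 0.0291 and moved that with shRNA2 to -0.1864, called 3 members higher with shRNA2, and gave 1713 genes lower and 4101 higher with shRNA1 in place of 2981 and 2407. Requiring at least 10 counts in every library moved the shRNA1 median to -0.0544 and called 2 members higher with shRNA2. Fitting only the groups compared gave an shRNA1 median of -0.0631. The GC content offset gave medians of -0.1465 and -0.3254, with 4 members lower and 2 higher with shRNA1, and 6 lower and 2 higher with shRNA2. The cause of these shifts was not tested.

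With each library left out in turn, members called with shRNA1 ranged from 3 to 5 (lower from 2 to 3, higher from 0 to 2), with shRNA2 from 5 to 7 (lower 5 throughout, higher from 0 to 2), and between the shRNAs from 0 to 4, all lower, with 0 without shRNA2 replicate 2, 1 without shRNA1 replicate 1 or 3 and 2 without shRNA2 replicate 1. The members' medians ranged from -0.1185 to -0.0731, from -0.2808 to -0.2271 and from -0.0739 to -0.0441. All genes called with shRNA1 ranged from 2948 (without nt-shRNA replicate 1) to 5903, with 1700 to 3254 lower and 1248 to 2649 higher (1531 without nt-shRNA replicate 2). The log2 ratio of Idh3g to Idh3a between the shRNAs ranged from -0.0269 to 0.1293, and that of Idh3b to Idh3a between shRNA2 and nt-shRNA from -0.0491 to 0.0904, with reversals at -0.0469 and -0.0152. Uncalled values of 4 members (Dlst, Idh3a, Idh3b and Suclg1) changed sign in 11 combinations of comparison and alternative and were at most 0.0708 in size there. Those of 3 other subunits (Dld, Sdhd and Sucla2) did so in 7 (at most 0.0731), and those of 9 genes of the other lists in 22 (at most 0.2147), none called in either fit.

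The correlation of residuals was between -0.026 and 0.074 over 7 pairs of same-numbered replicates, and between -0.083 and 0.028 over 14 pairs with different numbers. Residuals of the 2 nt-shRNA libraries mirror each other, so pairs with them say little on pairing. Between shRNA1 and shRNA2, same-numbered replicates were at 0.022, 0.057 and 0.074, and those with different numbers between -0.083 and 0.028. Pairing was thus not settled. The numbers were not taken as pairs because the labels do not state pairs, although the paper compared KD and control replicates pairwise in its qPCR. A fit with the replicate block called 5, 6 and 4 members in the 3 comparisons, as without it, with an shRNA1 median of -0.1102. It called 6018, 10034 and 6518 genes in all, in place of 5388, 9758 and 6204. Only 2 control libraries limit the precision of both KD comparisons.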
